A study of Mus musculus with 46 samples.

Results

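CD31+ endothelial cells sorted from the kidneys of sham-operated mice were compared with the other populations sorted from sham kidneys. The members were the 4 endothelial sham samples of the 46 samples in the series. They were set in turn against 3 PT samples (proximal tubular cells, LTL+), 4 macrophage samples (F4/80Hi) and 4 stromal samples (PDGFRB+). A gene was called an endothelial identity gene where it was higher in endothelial cells than in each of the 3 other populations. Of 16934 genes tested, 803 (4.74%) met this rule.

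All mice were wild-type male C57BL/6 animals aged 8 to 12 weeks, and each sham mouse underwent surgery without obstruction of the ureter. The series also holds the same populations after unilateral ureteric obstruction (UUO) and after its reversal (rUUO), which were used here only to look at the sham genes in samples that had not chosen them. In rUUO kidneys the ureter was reimplanted and the mice were culled 14 days later. These groups held 4 endothelial, 3 PT, 3 macrophage and 4 stromal samples in rUUO and 3, 4, 4 and 4 in UUO. The sources used here give neither the time at which the sham mice were culled nor the day of the sorted UUO samples. The paper describes the cells sorted for small RNA sequencing as cortical. Whether medulla entered the samples used here is not stated. Each population is defined by 1 surface label, so a sample is a mixture of every cell that carries it. CD31 is carried by arterial, capillary, venous and lymphatic endothelium and, at lower levels, by platelets and some leukocytes. PDGFRB marks pericytes, mesangial cells, vascular smooth muscle and fibroblasts. The labels do not tie samples to single mice, so p-values measure only the spread between these samples, which may be technical.

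Endothelial cells line every vessel of the kidney. They hold together through junction proteins such as VE-cadherin, grow and survive under VEGF and angiopoietin signals, and owe much of their gene program to transcription factors of the ETS, SOX, GATA and KLF families. In the kidney they differ by bed: the glomerular capillary is fenestrated and filters plasma, the peritubular capillary takes up what the tubule reabsorbs, and the vasa recta run through the medulla.

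Values are FPKM, which count fragments relative to transcript length and library size, and were rescaled so that the nuclear genes of a sample sum to 1000000, which allows levels to be compared per length between genes. They are called levels below. Mitochondrial genes were left out because they took 32.5% to 43.5% of the FPKM in endothelial samples and 68.9% to 75.6% in PT samples. A log2 difference is the endothelial mean of log2(level + 1) minus that of the other population. It understates the change of genes with a low level. Adjusted p-values are from limma fits over the 16934 genes. The files give no read counts, and relative depth recovered from single-exon genes ran from 0.816 to 1.18 over the endothelial samples.

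The label was borne out by the markers given for these cells. Pecam1 encodes CD31 itself, so it checks the sort. It lies on chr11:106654217-106750628 of GRCm38 and was at 919.5, 1058, 777 and 749 in endothelial samples 1 to 4. Its level was 6.57 to 8.85 in PT samples, 9.83 to 15.4 in macrophages and 9.72 to 24.9 in stromal cells. The endothelial samples were thus clear of all others, by log2 differences of 6.60 ± 0.27 (SE), 6.09 ± 0.25 and 5.58 ± 0.25.

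Kdr, the main signalling receptor for VEGF, lies on chr5:75932827-75978458. It was at 739, 960.2, 819 and 537 in the endothelial samples. Stromal cells came next, at 11.9 to 16.3. The differences were 7.06 ± 0.33 against PT cells (adjusted p = 3.28e-11), 7.20 ± 0.30 against macrophages (adjusted p = 4.48e-12) and 5.66 ± 0.30 against stromal cells (adjusted p = 1.13e-09, limma). Cdh5, which encodes VE-cadherin, lies on chr8:104101625-104144511. It was at 738, 797, 813 and 505 in endothelial samples and at 5.85 to 13.8 in stromal cells, again the next highest population. Its smallest difference, 6.14 ± 0.31 against stromal cells, was larger than that of Pecam1 or Kdr. Sample 4 was the lowest of the 4 for each of these genes, and the groups did not overlap for any of them.

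Markers of other cells gave the background against which these levels stand. In bulk samples fewer cells of a type and less RNA per cell cannot be told apart. The 12 PT markers summed to 395 to 1155 in endothelial samples and to 26824 to 30305 in PT samples. All 12 were lower in endothelial than in PT cells, and the median marker was at 1.97% of its PT level. Sample 3 held the highest sum, with Kap, an androgen-regulated tubular gene, at 163, 145, 527 and 246 and the phosphate transporter Slc34a1 at 72.7, 46, 196 and 75.7. Macrophages held a like share, a median of 2.08%.

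The 14 macrophage markers summed to 385 to 489 in endothelial samples against 68644 to 76116 in macrophages. All 14 were lower in endothelial cells, with a median of 0.52% of the macrophage level. Cd74, the MHC class II invariant chain, was at 232, 166, 215 and 239 and was about as high in PT cells, at 197 to 253. Lyz2 and C1qb were at 85.1 to 132 and 27.2 to 37.5. The 14 stromal markers summed to 323 to 390 against 4729 to 8083 in stromal cells, and all 14 were lower in endothelial than in stromal cells. The median stromal marker was at 3.96% of its stromal level, and the highest share was 25.3%. The mural cell gene Rgs5 was at 93.9, 114, 113 and 80.4 in endothelial samples, above PT cells (5.59 to 8.15) and macrophages (1.56 to 4.48). The smooth muscle actin gene Acta2 was at 90.9, 59.1, 105 and 92.4 and likewise above both. The matrix gene Col3a1 was at 24.1 to 42.4.

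Markers of cells that no gate selected were also measured. The 6 distal nephron markers summed to 402, 624, 2180 and 796 in endothelial samples 1 to 4 and to 933 to 1439 in stromal samples. Umod, the thick ascending limb protein uromodulin, was at 223, 377, 1347 and 558 in endothelial samples and at 461, 595, 542 and 631 in stromal samples, so sample 3 stood above the rest. Slc12a3, the transporter of the distal convoluted tubule, was at 47.1, 72.2, 304 and 72.4. Slc12a1, that of the thick ascending limb, was at 62.5, 80.8, 178 and 89.3. The 7 podocyte markers summed to 250.2 to 384 in endothelial samples, 496 to 682 in stromal cells, 288 to 413 in macrophages and 11.7 to 39.3 in PT cells. Of these, Synpo, an actin-binding protein gene, was at 69.0 to 165 and the cell cycle inhibitor gene Cdkn1c at 79.2 to 119.6.

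Markers of lymphocytes and platelets were low in the endothelial samples. The 7 lymphocyte markers summed to at most 1.35, with Cd3g listed at 0 in all 4 samples and Cd79b at 0 to 1.16. The 6 platelet markers summed to 17.7 to 27.0, with Pf4 at 3.16 to 9.37, Ppbp at 3.17 to 20.4 and Itga2b at 0.0482 to 5.45. Platelet markers were higher in stromal samples 1, 2 and 4, at 196, 156 and 199.9, than in stromal sample 3, at 19.3. The 8 erythroid and neutrophil markers summed to 153 to 254, nearly all of it globin, with Hbb-bs at 69.4 to 162, Hba-a2 at 11.8 to 59.0 and Hbb-bt at 19.2 to 50.3. Globin transcripts share sequence, so their split is uncertain. None of the markers on these lists was an identity gene. The part of tubular, podocyte or stromal RNA in the calls below was not tested.

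**Figure D1:**
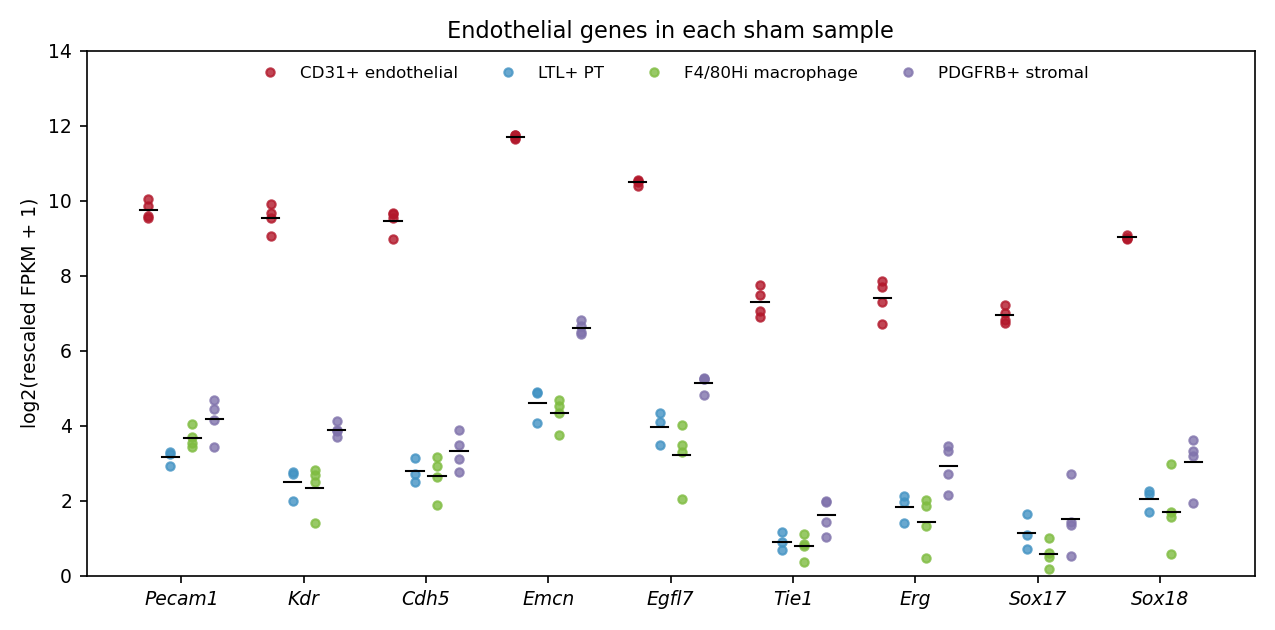
Level of 9 endothelial genes in each of the 15 sham samples, as log2(rescaled FPKM + 1); points are samples, colored by population, and black bars are the population means. The 4 endothelial samples lie above every other sample for all 9 genes, and stromal samples are the next highest on average.

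Genes called against PT cells and macrophages were mostly higher in endothelial cells, and those called against stromal cells were mostly lower. Against PT cells 5154 genes (30.4%) were higher and 2284 (13.5%) lower. Against macrophages 4996 (29.5%) were higher and 2426 (14.3%) lower. Against stromal cells 1341 (7.92%) were higher and 2523 (14.9%) lower. The median gene differed by 0.45, 0.32 and -0.20, so these splits move with the scaling. With median-of-ratios scaling they were 3429 higher and 3497 lower, 3407 and 3715, and 1668 and 1886. With quantile normalization they were 3451 and 3222, 3632 and 3427, and 1761 and 1939. With the FPKM as deposited they were 7608 and 1240, 3482 and 3014, and 1446 and 1985, over 14204 genes tested.

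The identity genes were chosen for positive differences in these same samples, so the sizes given next follow in part from that choice. Their median log2 difference was 3.42 against PT cells, 3.05 against macrophages and 1.99 against stromal cells. The smallest of a gene's 3 differences, called its margin below, had a median of 1.80 and was at least 1 for 672 genes, at least 2 for 350, at least 4 for 90 and at least 5 for 32. For 701 identity genes all 4 endothelial samples lay above each of the 11 others, as they did for 832 (4.91%) of all genes tested.

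Stromal cells were the nearest population for most of these genes. The smallest difference was against stromal cells for 558 identity genes (69.5%), against macrophages for 153 (19.1%) and against PT cells for 92 (11.5%). A further 1558 genes were higher in endothelial cells than in both PT cells and macrophages but not called against stromal cells, and 358 more were lower than in stromal cells. The same count of genes held back by macrophages alone was 204 not called and 108 lower, and by PT cells alone 98 and 28. These counts were of 2719, 1115 and 929 genes that were higher than in the other 2 populations. Of all 16934 genes tested, 13070 were not called against stromal cells, 9512 against macrophages and 9496 against PT cells. Fewer genes of any kind were thus called against stromal cells, so the counts are a description.

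Together the identity genes made up 14.1% to 16.2% of the nuclear signal of an endothelial sample. They made up 4.30% to 4.70% in stromal cells, 2.65% to 2.89% in macrophages and 1.75% to 1.79% in PT cells. The genes were picked as higher in these endothelial samples, so a larger share there is fixed by the choice. Of the 803, 727 (90.5%) were protein coding, against 80.1% of all genes tested, and 25 were lincRNAs. Their median endothelial level was 62.3, with 296 at 100 or more.

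**Figure D2:**
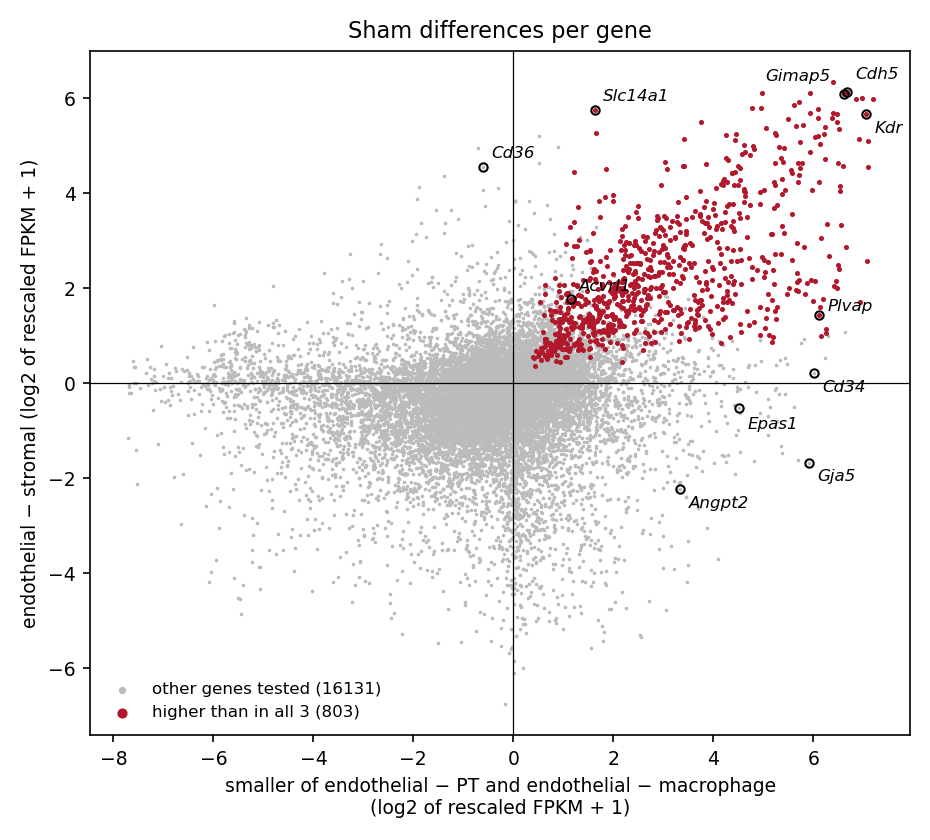
Each point is 1 of the 16934 genes tested in sham; the horizontal axis is the smaller of the differences from PT cells and macrophages and the vertical axis the difference from stromal cells, both in log2 units, with identity genes in red. Kdr, Cdh5 and Gimap5 lie at the upper right. Slc14a1 (1.63) and Cd36 (-0.60) lie low on the horizontal axis, where macrophages set the value, and on the vertical axis Cd34 (0.21) lies near 0 and Gja5 (-1.67) and Angpt2 (-2.23) below it.

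The 5 highest levels among the identity genes were those of Ly6e, Ifitm3, Ly6c1, Ly6a and Emcn, all of them membrane proteins. Ly6e led with 6858, 7141, 5946 and 6256, but macrophages reached 1900.1 to 2364, so its margin was 1.60. Ifitm3, an interferon-induced membrane protein, was at 5247, 4380.3, 4718 and 6051 and stood only 0.55 ± 0.14 above stromal cells (adjusted p = 0.00737, limma), which had 3239 to 4098. That call was lost with quantile normalization (0.43), without the intensity trend and with each pair of populations fitted alone. Ly6c1 combined a level of 4138 to 4304 with a margin of 5.15. Ly6a, the stem cell antigen Sca-1, was at 2809.9 to 4661, and the sialomucin Emcn at 3216 to 3476.

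Some of the most selective genes were on none of the lists described below. AU021092 (chr16:5211828-5222299) had the widest margin of any gene, 6.35. It was at 407, 370.2, 489 and 369.6 in endothelial cells and at 0.866 to 11.7 in stromal cells, the next highest. Among unlisted genes the GTPase gene Gimap5 followed with 6.09, at 261, 277, 293 and 268 against 1.25 to 6.38 in stromal cells. Both genes varied little among the endothelial samples.

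The other unlisted genes had margins of 5.94 (Tmem88) down to 4.87 (Fam167b). Tmem88, a membrane protein that binds Dishevelled in Wnt signalling, was at 136 to 199.5. Palmd, or palmdelphin, was at 121 to 185, and Klk8, a secreted serine protease, at 44.8 to 119 with 0.852, 0, 0 and 0 in stromal samples 1 to 4. Dhh, the Desert hedgehog ligand, was at 38.6 to 59.8 and at 0.0722 to 1.12 in stromal cells, the next highest. Rtp3 was at 103 to 152, Cyyr1 at 185 to 460.1 and Lrrc3b at 37.5 to 67.3, and of these only Cyyr1 passed 4 in any other population (2.43 to 9.34 in stromal cells). The olfactory receptor gene Olfr1396 was at 41.8 to 81.6 and Fam167b at 180.2 to 238. Together with Gimap1, Gimap3, Ly6c1 and 4833403J16Rik these are the 15 unlisted genes with the widest margins among those without overlap.

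Different genes led each single comparison. The largest differences from PT cells were those of Cd300lg (7.19), Emcn (7.10) and the phospholipid phosphatase Plpp1 (7.09), the latter at 1378 to 1808 against 7.80 to 14.3. Against macrophages they were Ly6c1 (7.85), the long noncoding RNA Bvht (7.63) and Ehd3 (7.5). Bvht was at 325 to 512 in endothelial cells and still at 52.3 to 84.0 in stromal cells. Against stromal cells they were AU021092 (6.35), Cdh5 (6.14) and Tmem88 (6.12).

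At the threshold the differences were small. Just inside were Gatad2a, a subunit of the NuRD complex with a difference of 0.56 from PT cells, and the splicing factor gene Hnrnpf with 0.39 from macrophages. Both calls were lost when any of several samples was left out, with differences of 0.39 to 0.70 and 0.34 to 0.45. They were also lost with quantile normalization and without the level filter. Just outside were Nek3, 1.39 from stromal cells, and Npr1, a natriuretic peptide receptor, 0.91 from stromal cells. Each was called when 1 of some samples was left out, for instance Npr1 without stromal sample 3 (1.15) and Nek3 without endothelial sample 1 (1.62).

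Identity genes that sat next to each other in the genome were counted among the 350 with a margin of at least 2. Of these, 84 lay in 35 runs of direct neighbors among the genes tested. How many a random set of this size would give was not counted, so the number is a description. Some runs pair a named gene with an unnamed locus, such as Sox17 with Gm37587, and sharing of reads was not examined there. The longest run held 9 genes at chr6:48684549-48770851, namely Gimap4, Gimap6, Gm28053, Gimap1os, Gimap1, Gimap5, Gm44226, 4833403J16Rik and Gimap3. The Gimap genes encode GTPases best known from lymphocytes. Of the 7 lymphocyte markers only 1 passed the level filter, and whether lymphocyte RNA added to the Gimap levels was not tested. All 8 Gimap entries that were tested were identity genes without overlap. Gimap4 was at 1185, 1178, 999 and 1167, Gimap6 at 484 to 665, Gimap1 at 250 to 327 and Gimap3 at 59.1 to 109, while Gimap9 had the smallest margin, 1.31. Gimap1os overlaps Gimap1, and whether strand was used in counting is not given in the sources used here, so their reads cannot be told apart.

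Other runs held 4 or 3 genes. Rtp3, Ltf, Gm43814 and Ccrl2 lay at chr9:110984935-111057519, and Adgrl4 and Ifi44 with 2 unnamed loci at chr3:148989152-151749960. Ly6a, Ly6c1 and Ly6c2 lay at chr15:74994877-75111970, where Ly6c1 and Ly6c2 are near-identical copies whose reads may be split. Ly6c2 was at 8.27 to 22.7. Tspan8, Ptprr and Ptprb formed a run on chromosome 10 and Apol9a, Apol10b and Apol9b another on chromosome 15. Erg and Ets2, both ETS factors, were neighbors at chr16:95359169-95721051, and so were the fatty acid binding protein genes Fabp5 and Fabp4 on chromosome 3.

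Promoter sequence from RefSeq (GRCm38.p6) was at hand for 572 of the 803 identity genes (71.2%), fewer than the 80% a comparison over the set would need, so no motif share is given for them. Among the marker genes Kdr had an entry, and Pecam1 and Cdh5 were not matched. The window runs from 250 bases before the RefSeq start to 50 after it, which lies 3 bases from the gene start of the annotation for Kdr and 29 for Gimap4. Those of Kdr, of its relative Flt1, and of the neighbors Gimap4 and Gimap5 are shown because these genes were high together in endothelial cells. Capitals mark the letters CCGGAA or CAGGAA on either strand, which are some of the forms that ETS factor sites take. CCGGAA is in 15.1% and CAGGAA in 30.4% of the 27025 promoters in the table. The Kdr and Gimap5 windows each hold 1 match to these letters and the Flt1 and Gimap4 windows hold 0. Other forms of the site were not searched for.
Kdr (chr5:75978406-75978705, minus strand): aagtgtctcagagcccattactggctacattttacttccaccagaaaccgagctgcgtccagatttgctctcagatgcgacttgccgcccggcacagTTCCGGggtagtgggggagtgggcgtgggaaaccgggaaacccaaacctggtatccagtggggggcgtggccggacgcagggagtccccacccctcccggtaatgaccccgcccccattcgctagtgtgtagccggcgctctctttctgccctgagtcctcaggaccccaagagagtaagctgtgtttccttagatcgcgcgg
Flt1 (chr5:147725962-147726261, minus strand): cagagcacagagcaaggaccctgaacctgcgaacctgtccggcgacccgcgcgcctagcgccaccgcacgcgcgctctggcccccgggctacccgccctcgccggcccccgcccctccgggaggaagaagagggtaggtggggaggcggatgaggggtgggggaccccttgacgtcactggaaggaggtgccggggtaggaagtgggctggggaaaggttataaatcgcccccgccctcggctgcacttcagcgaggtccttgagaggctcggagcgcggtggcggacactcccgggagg
Gimap4 (chr6:48684328-48684627, plus strand): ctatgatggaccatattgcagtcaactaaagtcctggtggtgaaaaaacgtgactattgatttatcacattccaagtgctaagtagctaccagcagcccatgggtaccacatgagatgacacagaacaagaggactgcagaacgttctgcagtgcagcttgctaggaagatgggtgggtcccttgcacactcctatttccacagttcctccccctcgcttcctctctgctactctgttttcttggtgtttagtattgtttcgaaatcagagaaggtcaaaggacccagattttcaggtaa
Gimap5 (chr6:48745947-48746246, plus strand): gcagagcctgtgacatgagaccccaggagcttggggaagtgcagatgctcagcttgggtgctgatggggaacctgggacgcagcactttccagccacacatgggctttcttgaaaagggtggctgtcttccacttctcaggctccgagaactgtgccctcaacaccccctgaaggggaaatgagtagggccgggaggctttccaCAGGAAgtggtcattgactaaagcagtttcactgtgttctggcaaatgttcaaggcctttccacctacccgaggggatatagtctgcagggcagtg
The Kdr match is CCGGAA on the opposite strand and the Gimap5 match is CAGGAA on the printed strand. A match of letters is a description of the window and not a binding site.

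The 14 endothelial lists held 147 genes, of which 145 were tested and 93 (64.1%) were identity genes, beside 4.74% of all genes tested. Their median margin was 2.00, that of all genes -0.67. These lists name genes known from endothelium, and they were chosen with earlier results of these data known.

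Of the 15 junction and surface genes, 11 were identity genes. Beside Pecam1 and Cdh5, Emcn stood at 3476, 3451, 3216 and 3244 and Cldn5, a tight junction claudin, at 87.2, 94.7, 84.1 and 113. Their margins were 5.10 and 4.43. Esam, Icam2, Jam2, Podxl, Clec14a, Cd93 and Plvap completed the 11. Cd34, the sialomucin often used to pick out endothelium, was not among them. It was at 418, 605, 528 and 468 in endothelial cells and at 445, 411, 473 and 409 in stromal cells, which overlap, with a difference of 0.21 ± 0.22 (adjusted p = 0.577, limma). Tjp1, which encodes ZO-1, differed by 0.02 from stromal cells. Mcam, or CD146, was lower than in stromal cells, with a difference of -0.80 (adjusted p = 0.0449, limma). The claudin partner Ocln was at 1.59 to 4.13 and lower than in PT cells.

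Among 14 VEGF, angiopoietin and guidance receptors and their partners, 9 were identity genes, and all 14 were higher than in PT cells and macrophages. Tie1, the orphan receptor that modulates angiopoietin signalling, was at 216, 179, 132 and 118, with 1.06 to 3.00 in stromal cells, the next highest. The matrix protein gene Mmrn2 was at 252, 242, 216 and 172 and Egfl7, a secreted vessel-guiding factor, at 1457, 1498, 1346 and 1485. Flt1, Flt4, Tek, Robo4 and Ptprb were the other members called. The co-receptors Nrp1 and Nrp2 were not. Nrp1 was at 682, 911, 721 and 403 in endothelial and 650.0, 687, 648 and 534 in stromal samples, a difference of 0.06, whose sign changes with the scaling and with the sample left out. Nrp2 and Plxnd1, a semaphorin receptor, differed by -0.04 and 0.22. Unc5b, a netrin receptor, and Angpt2, the ligand that competes at Tek, were lower than in stromal cells. Angpt2 was at 26.8, 21.8, 40.5 and 30.7 against 165, 129.7, 165 and 112, a difference of -2.23 ± 0.35 (adjusted p = 0.000107, limma).

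The BMP and TGF-beta list was more evenly shared, with 5 identity genes of 9. The inhibitory SMAD gene Smad6 was at 28.4, 43.6, 46.5 and 26.7, the ligand gene Bmp6 at 101, 159, 129.8 and 60.0, and Acvrl1, which encodes ALK1, at 137, 139, 153 and 108. Macrophages reached 45.9 to 98.0 for Acvrl1, and the margin was 1.15. Smad7 passed by 1.05, and Eng, the co-receptor endoglin, by 1.01. The Smad7 call was lost without any 1 of endothelial samples 1 to 3 or stromal samples 1 to 3, with margins of 0.91 to 1.07. It was also lost with a pseudocount of 0.1, without the level filter and with all 44 samples in 1 fit. The Acvrl1 call was lost with median-of-ratios scaling (0.70). Tgfbr2 was as high in macrophages (180.2 to 219) as in endothelial cells (129 to 245). Bmpr2, Smad9 and the BMP-binding protein gene Bmper were not called against stromal cells. Bmper was at 10.4, 11.0, 10.9 and 10.5 in endothelial samples but at 2.05, 5.66, 23.7 and 0.827 in stromal samples, so stromal sample 3 decided that comparison. Without it Bmper was called, with a margin of 1.81. Bmpr2 was called without endothelial sample 4, by 0.77.

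Of 12 Notch and ephrin genes, 7 were identity genes. Efna1, an ephrin ligand, was at 122, 111, 101 and 117, the Notch target Hey1 at 71.1, 60.9, 141 and 79.2, the receptor Notch4 at 88.1, 129.7, 118 and 65.8 and the ligand Dll4 at 74.1, 79.8, 103 and 59.9. Their margins were 3.94, 3.31, 3.15 and 3.13. Notch1, Jag2 and the venous receptor Ephb4 were called too. Efnb2, its arterial ligand, was at 220.1 to 434 in endothelial cells and 180.0 to 371 in stromal cells and was not called against the latter. Jag1 (0.01), Hey2 (0.37) and Hes1 (0.64) likewise differed little from stromal cells, and Dll1 was at 1.98, 4.998 and 40.8 in the PT samples and was called neither against them (0.94) nor against stromal cells (1.10).

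Of 26 transcription factors listed, 15 were identity genes. Sox18 (511, 545, 512 and 506), Sox17 (105, 149, 111 and 128), Gata5 (124, 99.3, 137 and 72.0) and the ETS factor Erg (232, 207, 157 and 104) led, with margins of 6.00, 5.44, 5.18 and 4.48. Sox7, Bcl6b, Tal1, Gata2, Tcf15, Klf2, Klf4, Elk3, Ets2, Foxo1 and Fli1 were the others, Fli1 by only 0.64. The hypoxia factor gene Epas1 was at 769, 1007, 853 and 424 in endothelial and 1138, 1082, 1039.8 and 941 in stromal samples and was not called (difference -0.53). Ets1 and Mecom were lower than in stromal cells, with differences of -0.996 and -1.51. Nr2f2, which specifies veins, was at 20.8 to 37.9 against 248 to 376, and Foxc1, Foxf1 and Meox2 were also lower than in stromal cells. Tbx3 was at 313, 726, 439.9 and 238 against 193, 269, 103 and 219 and missed the threshold (1.08, adjusted p = 0.0793, limma), which it passed with median-of-ratios scaling (1.28). A further 3 factors were not called higher than in macrophages. Lyl1 was at 73.0 to 96.4 in macrophages against 3.71 to 14.5 in endothelial cells and Mef2c at 276 to 378 against 138 to 185. Mef2c was not called against stromal cells either, which were at 118 to 158 (difference 0.25). Hhex did not overlap (106 to 147 against 60.9 to 77.5), yet its adjusted p was 0.0604 in the limma fit, and it passed, with the same difference of 0.81, with the replicate block, with each pair of populations fitted alone, with all 44 samples in 1 fit and without stromal sample 3.

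Of 15 genes of vessel tone and coagulation, 10 were identity genes. The nitric oxide synthase gene Nos3 was at 27.6, 24.3, 22.9 and 20.4, with 0.168 to 0.694 in stromal cells, the next highest. Plat, which encodes tissue plasminogen activator, was at 2026, 2205, 1885 and 1276, F8, coagulation factor VIII, at 96.7, 100.2, 72.6 and 72.3 and the endothelin receptor gene Ednrb at 183, 228, 109 and 142. Edn1, Ece1, Vwf, Thbd, Procr and Sele were also called. Ace was at 9.84 to 29.0 in endothelial cells, 12.3 to 20.2 in PT cells and 8.94 to 50.6 in stromal cells. Tfpi was above all other samples yet only 0.25 from stromal cells, and Nostrin differed from them by 0.34. Ptgis, the prostacyclin synthase gene, was lower than in stromal cells, and Selp was not called against macrophages, at 7.32, 17.6, 6.49 and 3.79 in endothelial samples.

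Of 12 caveolar and lipid uptake genes tested, 7 were identity genes. Fabp4 was at 854, 1033, 572 and 1394 and Gpihbp1, which carries lipoprotein lipase across the capillary, at 262, 221, 355 and 347. Ldb2 and Cavin2 were at 483 to 698 and 208 to 271, and Cav1, Cav2 and Cavin3 passed with smaller margins. Lpl itself was at 47.4 to 155, overlapping PT cells (57.4 to 117) and lower than in macrophages (-1.08). The fatty acid receptor gene Cd36 was at 191 to 256 in endothelial cells and 283 to 411 in macrophages. The nuclear receptor gene Pparg was not called against macrophages (-0.32). Cavin1 and Slc27a3 were not called against stromal cells (Cavin1 -0.83, Slc27a3 near 0), and neither were Lpl (-0.18) and Pparg (0.49). Lipg was under the level filter.

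Surface receptors of the G protein family and regulators of small GTPases were the most uniform list, with 18 of 20 called and a median difference of 3.63 even from stromal cells. The adhesion receptor gene Adgrl4 was at 1642, 1991, 1553 and 1265, Gimap4 as given above, Rasip1, a Ras-interacting protein needed for vessel lumens, at 66.2, 105, 84.1 and 56.7, and Rasgrp3 at 330.2, 374, 315 and 218. Only Gpr182 and Rgs12 failed, both against stromal cells, where Gpr182 was at 35.0 to 45.9 beside 35.9 to 70.6 in endothelial cells and Rgs12 at 5.26 to 30.7 beside 6.98 to 29.6.

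**Figure D3:**
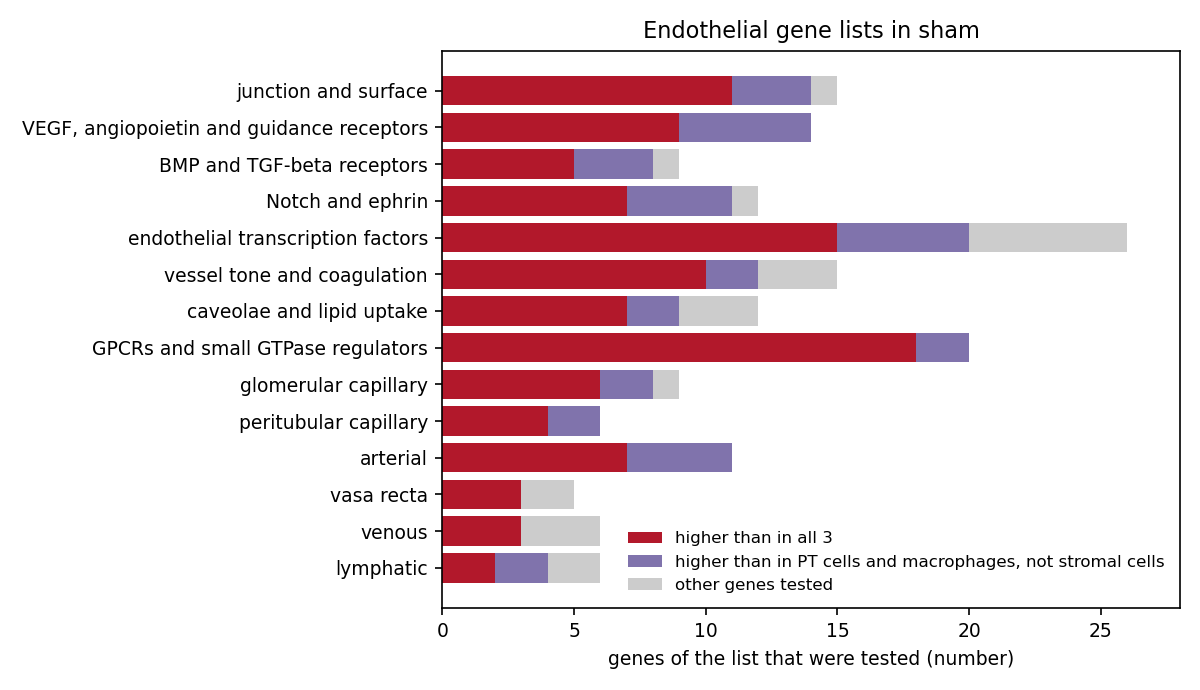
Number of genes tested on each of 14 endothelial lists, split into identity genes (red), genes higher than in PT cells and macrophages but not than in stromal cells (purple) and the rest (gray). The GPCR and small GTPase list has 18 red of 20, and the arterial list has 7 red and 4 purple of 11.

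Genes known from different vascular beds were present in every endothelial sample, but which beds entered the sort was not tested. The glomerular list was at a summed level of 4070, 4896, 3938 and 2333 in endothelial samples 1 to 4, with 6 of 9 genes called. Cyp26b1, a retinoic acid hydroxylase, was at 204, 364, 147 and 52.9 and Ehd3 at 1205, 1305, 1167 and 558, so sample 4 was the lowest for both. Sost was at 20.96, 28, 23.8 and 20.2. Plat, Gata5 and Smad6 are given above, and Tbx3, Nostrin and Mapt, whose PT level was 39.0 to 68.5, were not called. The peritubular list summed to 4194, 4594, 4312 and 3067, and stromal samples came close with 2902 to 3794. The largest member was Igfbp5, at 2531, 2841, 2689.6 and 1427 in endothelial and 3501, 3257, 3454 and 2619 in stromal samples. Cd300lg was at 726, 754, 774 and 599.8, Igfbp3 at 331 to 451 and Plvap, the diaphragm protein of fenestrae, at 289, 290.2, 137 and 261. Npr3 was lower than in stromal cells, with a difference of -1.53.

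The arterial list summed to 1033 to 1664 in endothelial and 1272 to 1548 in stromal samples, and 7 of 11 genes were called, led by Sox17, Hey1, Dll4 and Edn1 (34.9 to 55.6). Gja5, which encodes connexin 40, was at 238, 277, 373 and 182 in endothelial and 867, 899, 847 and 710.0 in stromal samples. It was thus lower than in stromal cells, with a difference of -1.67 ± 0.25 (adjusted p = 5.64e-05, limma), without overlap. Cxcl12, Efnb2 and Unc5b were the other arterial genes not called. Of 5 vasa recta genes, Slc14a1, the urea transporter UT-B, was at 123, 148, 144 and 99.4 with 33.4 to 47.2 in macrophages, and the water channel gene Aqp1 at 357, 448, 403 and 331 with 103 to 109 in PT cells. Plvap was called and Nr2f2 and Gas6 were not, Gas6 being at 229 to 251 beside 181 to 229 in PT cells.

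The venous list summed to 3493 to 3791, nearly all of it Emcn. Ephb4 was at 152 to 199.6 and Vwf, von Willebrand factor, at 75.7, 76.8, 71.9 and 31.6, whereas the adhesion molecule gene Vcam1 was lower than in macrophages and stromal cells and Selp and Nr2f2 were not called. The lymphatic list summed to 180 to 218. Flt4, the VEGF-C receptor gene, was at 110.4, 132, 113 and 75.3 and the chemokine gene Ccl21a at 81.1, 63.0, 49.6 and 75.5. Ccl21a has near-identical copies, so its level is uncertain. The master factor Prox1 was at only 3.39, 8.05, 14.6 and 3.95, Lyve1 at 5.06, 5.86, 10.9 and 18.2, Pdpn at 4.04 to 7.84 and Reln at 1.73 to 3.78, none of them called, and Mmrn1 was listed at 0 in all 15 samples.

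**Figure D4:**
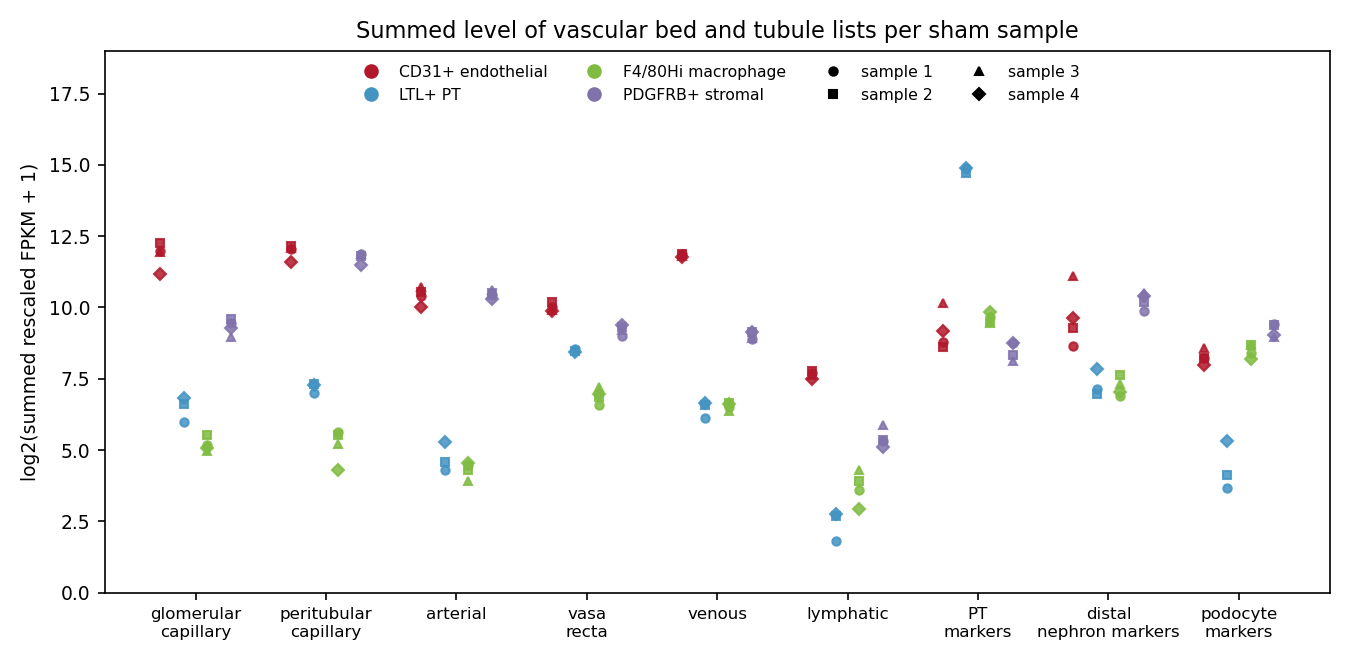
Summed level of 6 vascular bed lists and 3 lists of other kidney cells in each sham sample, as log2(summed rescaled FPKM + 1); colors are populations and shapes sample numbers. Endothelial sample 4 is lowest for the glomerular list (2333), endothelial sample 3 is highest for the PT and distal nephron lists (1155 and 2180), and stromal samples overlap endothelial ones on the peritubular and arterial lists.

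The 4 endothelial samples were not interchangeable. Sample 2 gave the highest value for 373 identity genes (46.5%) and for 36.9% of all genes tested. Sample 4 gave the lowest value for 434 identity genes, against 117, 186 and 66 in samples 1, 3 and 2. How many of all genes tested were lowest in sample 4 was not counted. Whether its low values are particular to identity genes was thus not tested. Sample 4 gave the highest value for 13.5% of all genes tested. Over the 674 identity genes with a mean level of at least 10, the median SD across the 4 samples was 0.33 on the log2 scale, with quartiles of 0.22 and 0.47. Emcn had an SD of 0.06 and Cyp26b1 one of 1.16.

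The 52 listed genes that were not identity genes were mostly shared with stromal cells. For 39 of them the smallest difference was against stromal cells, with 14 lower in endothelial cells and 25 not called. For 9 it was against macrophages and for 4 against PT cells. Against stromal cells 13070 of all 16934 genes tested were not called.

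The identity genes were next looked at in the obstructed and reversed kidneys, whose samples had no part in choosing them. In rUUO 783 were tested and 569 of these (72.7%) were again higher than in all 3 other populations, beside 6.28% of all 17105 genes tested there. In UUO it was 434 of 763 (56.9%), beside 4.39% of 16747. Leaving out single samples gave 531 to 579 in rUUO and 377 to 436 in UUO. In all, 415 of the 803 genes (51.7%) were called under all 3 surgeries.

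The calls were also counted by the margin in sham. Of genes with a margin of at least 2, 305 of 338 tested (90.2%) were called in rUUO and 265 of 332 (79.8%) in UUO. Of those under 2 it was 264 of 445 (59.3%) and 169 of 431 (39.2%). Pecam1, Kdr and Cdh5 had margins of 5.93, 6.38 and 5.93 in rUUO and of 6.35, 6.05 and 6.16 in UUO. Of the 93 listed identity genes 90 were called in rUUO and 81 in UUO. On the BMP and TGF-beta list 4 of 5 were called in rUUO and 1 in UUO. Bmp6 had a margin of 1.88 in sham, 1.18 in rUUO and 0.08 in UUO, and Smad7 one of 1.05, 0.07 and 0.13. Sost was under the level filter in both surgeries. Whether these margins differed between surgeries was not tested for all 803 genes.

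The listed genes that were not identity genes in sham were looked at in the same way. Of these 52 genes, 20 were higher than in all 3 populations in rUUO, 17 in UUO and 15 in both. Of all genes tested there, 6.28% were so in rUUO and 4.39% in UUO, and the share in both was not counted. The share among other genes that missed the rule in sham was not counted either. The test of the change itself, the endothelial minus stromal difference after surgery less that in sham, was added after these counts were seen. The 52 genes were chosen because they missed the rule in sham, mostly against stromal cells, and the change subtracts those same sham values in both surgeries. That choice moves the change upward, so the counts are a description and nothing is read from their excess over all genes or from their overlap. In rUUO the difference was called larger for 16 of the 52 and smaller for 3, where all genes tested gave 3.59% and 1.61%. In UUO it was called larger for 20 and smaller for 5, where all genes gave 5.93% and 4.07%. The 93 listed identity genes, chosen for high sham values, gave 16 larger and 5 smaller in rUUO and 23 and 5 in UUO. The 16 genes called larger in rUUO were among the 20 of UUO. Over all genes the calls were 608 larger and 272 smaller in rUUO, and 524 and 495 with quantile normalization, 425 and 401 with median-of-ratios scaling and 592 and 471 with FPKM as deposited. In UUO they were 1004 and 689, and 824 and 855, 800 and 963 and 1086 and 889. The median shift was 0.24 in rUUO and 0.21 in UUO.

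Of the 52 genes Gja5 had the largest change in both surgeries. In stromal cells it was at 710.0 to 899 in sham, 2.52 to 15.9 in rUUO and 1.23 to 11.9 in UUO. In endothelial cells it was at 182 to 373, 156 to 222 and 210.1 to 309. After surgery the stromal samples lay below all endothelial ones, and the difference rose by 6.10 ± 0.53 (SE) and by 6.98 ± 0.55. Igfbp5 in stromal cells was at 2619 to 3501, 179 to 315 and 274 to 981, a rise of 3.14 and 1.81 in the difference. Epas1 in stromal cells was at 941 to 1138, 178 to 190.0 and 86.7 to 242, and Mecom at 281 to 401, 15.3 to 43.96 and 5.06 to 36.3. Cd34, Mcam, Ets1, Efnb2, Nrp1, Angpt2, Gpr182, Mapt, Foxc1, Mef2c and Plxnd1 also had lower stromal levels after both surgeries.

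Of the 16 genes, Cd34 and Selp also had higher endothelial levels after both surgeries, without overlap with sham. Cd34 was at 418 to 605 in endothelial cells in sham, 786 to 1035 in rUUO and 733 to 894 in UUO. Selp was at 3.79 to 17.6 in endothelial cells in sham, 94.5 to 216 in rUUO and 50.4 to 85.7 in UUO, and at 0 to 8.16 in stromal cells of UUO kidneys. With quantile normalization the UUO change (2.18) was no longer called. The change was below 0 for Lpl (-2.25 and -2.97), Bmper (-3.58 and -5.01) and Gas6 (-1.09 and -1.36), whose sham differences from stromal cells were -0.18, 1.08 and 0.56. The rUUO calls of Gas6 and of Plxnd1 were lost when any of several endothelial or stromal samples was left out, with changes of -1.20 to -0.99 and of 1.67 to 2.05. Whether the make-up of the PDGFRB+ gate changed with surgery was not tested.

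**Figure D5:**
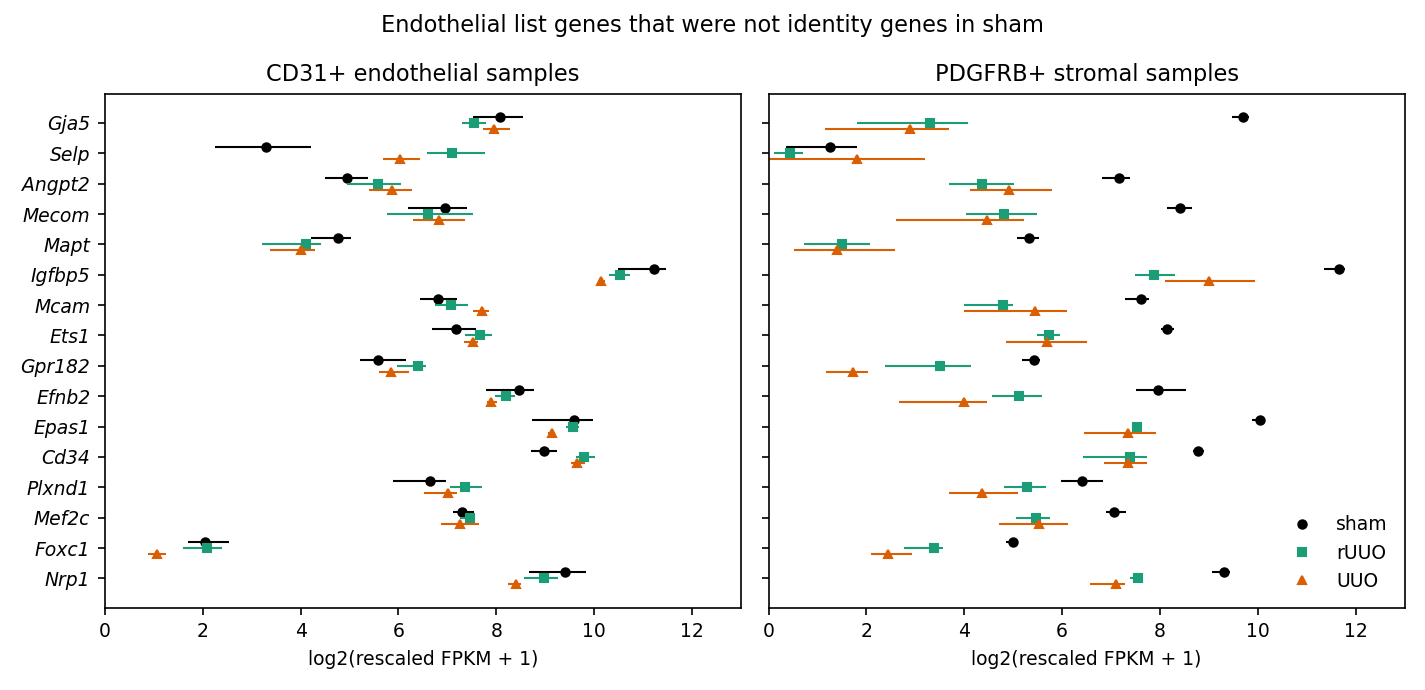
Levels of the 16 listed genes that were not identity genes in sham and whose endothelial minus stromal difference was larger after both surgeries, as log2(rescaled FPKM + 1) in endothelial (left) and stromal (right) samples; symbols are log2 of the mean level plus 1, and lines run from the lowest to the highest sample. For 15 of the 16 the stromal sham samples lie above the stromal rUUO and UUO samples, and for Selp and Cd34 the endothelial rUUO and UUO samples lie above the endothelial sham samples.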

How the data were processed

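RNA-seq had been run on cells sorted from PBS-perfused kidneys by flow cytometry, after amplification with the Ovation RNA-Seq System V2. Per the labels, the submitters' processing notes name FastQC, Bowtie2, RSEM and DESeq2 and the mm10 build, without versions. The deposited values are FPKM per gene, which the authors made; read counts were not used here. The table holds 53465 genes and 46 value columns. Of these, 44 were used and 2 were left out because they carry the same name, which leaves 3 PT sham and 3 endothelial UUO samples.

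From the deposited FPKM, 37 mitochondrial genes were removed, each sample was rescaled to 1000000, and genes with a mean of at least 1 over the samples of a surgery were tested on log2(value + 1) with limma (version 3.58.1, R 4.3.3, intensity trend on). The 15 sham samples of all 4 populations entered 1 fit without covariates, and the 14 rUUO and 15 UUO samples each had a fit of their own. Genes were called at a Benjamini-Hochberg adjusted p under 0.05 in each comparison. The change of the endothelial minus stromal difference with surgery was fitted over all 44 samples and was added after the data were seen. Tables and figures were made with Python 3.11.15. The procedure was tested on simulated data. Depth is unknown because no counts are given, so no counting interval is printed, and relative depth came from the steps between low values of single-exon genes.

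The members and the gene lists were chosen with earlier results of these data known. Genes were named by rule: the 3 markers; on each list, up to 4 identity genes with the widest margin and every member that was not an identity gene; the 15 unlisted genes with the widest margin and no overlap; the 3 largest differences in each comparison; 2 genes each just inside and just outside the threshold; up to 3 members of each list of other cells with the highest level in endothelial samples; and the 5 highest identity genes. Other names, among them Ly6c2, the neighbors in genome runs and the most variable genes, were chosen after their values were seen. Where a symbol had several entries the protein-coding one was used, the first of 2 for Itgam. Coordinates are GRCm38. Alternatives were other scalings, pseudocounts, filters and fits, a replicate block, and leaving out each sample. The values of 1 marker gene are not reported here.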

Additional observations from a re-analysis of the deposited data

Results flagged for a closer look

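Of 429 groups of 4 samples examined, 20 (4.66%) held a sample whose gap to the nearest of the others, as a share of the group's range, passed Dixon's 95% critical value. Chance flags about 1 in 20 groups, so the number is near that. In endothelial sham sample 4, Ehd3 was at 558 (others 1167 to 1305), Igfbp5 at 1427 (others 2531 to 2841), Vwf at 31.6 (others 71.9 to 76.8), Olfr1396 at 41.8 (others 73.6 to 81.5), 4833403J16Rik at 34.2 (others 74.2 to 80.0) and Hes1 at 53.4 (others 37.8 to 38.9). In sample 3, Plvap was at 137 (others 261 to 290.2), Gimap4 at 999 (others 1167 to 1185) and Lyz2 at 132 (others 85.1 to 89.7). In sample 2, Sox18 was at 545 (others 506 to 512).

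Among stromal sham samples, sample 3 held Ppbp at 0.385 (others 104 to 132), Slc14a1 at 6.16 (others 0.536 to 0.805) and Gatad2a at 42.4 (others 56.8 to 59.0), sample 1 held Klk8 at 0.852 (the others at 0) and Ifitm3 at 4098 (others 3239 to 3293), and sample 2 held Egfl7 at 27.3 (others 36.7 to 37.7). Among macrophage sham samples, sample 1 held Hey2 at 0.477 (others 0 to 0.051) and Rgs12 at 2.92 (others 2.46 to 2.53), sample 2 held Vcam1 at 60.3 (others 47.6 to 49.4) and sample 4 held Plpp1 at 2.92 (others 13.3 to 15.5).

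For 19 of the 52 listed genes that were not identity genes in sham, the endothelial minus stromal difference was called different from sham after both surgeries in the limma interaction fit. These genes were chosen on the sham samples, whose values both changes subtract, so the number and the direction are in part fixed by that choice and are given as a description. The log2 changes, given for rUUO and then UUO, were above 0 for Gja5 (6.10 and 6.98), Selp (4.64 and 2.78), Angpt2 (3.48 and 3.30), Mecom (3.25 and 4.08), Mapt (3.22 and 3.45), Igfbp5 (3.14 and 1.81), Mcam (3.13 and 3.26), Ets1 (2.94 and 2.97), Gpr182 (2.88 and 4.03), Efnb2 (2.59 and 3.51), Epas1 (2.55 and 2.40), Cd34 (2.28 and 2.13), Plxnd1 (1.90 and 2.49), Mef2c (1.76 and 1.53), Foxc1 (1.69 and 1.64) and Nrp1 (1.36 and 1.28). They were below 0 for Bmper (-3.58 and -5.01), Lpl (-2.25 and -2.97) and Gas6 (-1.09 and -1.36).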

How the results depend on the processing

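The count of identity genes ran from 643 of 11881 genes tested (mean of at least 5) to 836 of 28852 (no filter). These 2 counts are thus over different numbers of genes. It ran from 694 to 805 when 1 sample was left out. Of the 803 genes, 431 were called in each of the 26 fits of the sham samples, as were 249 of the 350 with a margin of at least 2. The number higher than in PT cells fell from 5154 to 3429 with median-of-ratios scaling. Of the counts of lower genes, that against PT cells went from 2284 to 1240 with FPKM as deposited, where 14204 genes were tested. With median-of-ratios scaling it was 3497, and that against macrophages went from 2426 to 3715. The smaller endothelial minus stromal differences in rUUO went from 272 over all genes to 495 with quantile normalization and 471 with FPKM as deposited. The count of identity genes called in rUUO ran from 490 to 579 and in UUO from 377 to 436. Among the 52 listed genes that were not identity genes, larger endothelial minus stromal differences numbered 15 to 17 in rUUO and 19 to 24 in UUO. With the replicate block 806 identity genes were called, of which 780 were shared with the fit without it. The replicate numbers were not taken to pair the samples: the deviations of same-numbered samples correlated at -0.0282 to 0.134 over 21 pairs, against -0.122 to 0.0619 for other numbers, and 15 of 42 combinations correlated best with their own number.

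Of 3556 alternative values of 143 named genes, 3443 had the same direction and call, 47 lost the call (5 genes), 23 gained it (9 genes) and 43 changed sign (15 genes). The margins that changed sign were small ones. With quantile normalization Nrp1 was at -0.14, Nrp2 at 0.078, Slc27a3 at 0.35, Tjp1 at -0.033 and Hbb-bs at -0.077. With median-of-ratios scaling Nrp2 was at 0.16, Slc27a3 at 0.18, Umod at 0.060, Gas6 at -0.32, Gatad2a at -0.016, Hnrnpf at -0.068, Hbb-bs at -0.13 and Hba-a2 at -0.019. With FPKM as deposited Nrp2 was at 0.058, Slc27a3 at 0.086 and Hbb-bs at -0.034. Leaving out 1 sample gave -0.10 to 0.29 for Nrp1, -0.21 to 0.11 for Nrp2, -0.25 to 0.32 for Jag1, -0.26 to 0.27 for Slc27a3, -0.37 to 0.41 for Rgs12, -0.081 to 0.21 for Tjp1, -0.62 to 0.25 for Umod, -0.23 to 0.081 for Tgfbr2, -0.080 to 0.12 for Cdkn1c, -0.33 to 0.66 for Hbb-bs, -0.10 to 0.22 for Gpr182 and -0.21 to 0.90 for Hba-a2. The cause of these changes was not tested. With no counts in the files, what depth alone would allow for genes of a low level cannot be given.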

Other observations

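Among identity genes with a mean level of at least 10, the SD of log2 values over the 4 endothelial samples was largest for Insl3, which encodes an insulin-like peptide known from testis, at 20.8, 17.7, 0.796 and 6.51 in samples 1 to 4 (SD 1.65). Gm32688, a neighbor of Elk3, was at 2.13, 17.2, 4.44 and 18.8, Tnfaip8l1 at 24.9, 14.6, 2.34 and 11.1, and Rhbdl2, a membrane protease, at 15.5, 16.6, 2.22 and 15.3. Prdm16, a transcription factor of arterial endothelium, was at 28.1, 22.6, 15.7 and 4.71. Which sample was lowest differed from gene to gene.

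In the other direction, 102 genes were lower in endothelial cells than in all 3 other populations.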
